A study of Mus musculus with 8 samples.

Results

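The B cell receptor signalling chain was described as 32 genes, from the receptor-associated chains Cd79a and Cd79b through the kinases, adaptors, lipid and calcium enzymes to the surface proteins and phosphatases that modulate them. Members were the rows of the expression table whose Ensembl identifier carries one of these gene symbols in the GENCODE M21 mouse annotation, and all 32 were found among 54018 identifiers. RNA came from splenic mononuclear cells of leukaemic C57BL/6 mice, in 4 Kdm1aKD;Eµ-TCL1A libraries (knockdown, replicates 1, 2, 4 and 5) and 4 Eµ-TCL1A libraries (control, replicates 1 to 4). All 8 libraries share the Eµ-TCL1A transgene, in which an immunoglobulin heavy chain enhancer drives the TCL1A oncogene in B cells, and which is used to model chronic lymphocytic leukaemia. In the knockdown mice doxycycline induced the lowering of Kdm1a, the lysine demethylase also called LSD1. Whether the controls were given doxycycline, or carried a silencing construct without a target, is not in the labels. Ages are not given in the labels, no sorting of the cells is mentioned, and no label says that each library is a separate animal, so every p-value here reflects variation among libraries, which may be technical.

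In a B cell, antigen binding to surface immunoglobulin leads SRC family kinases such as LYN to phosphorylate the cytoplasmic tails of CD79A and CD79B, which recruit the kinase SYK. SYK and BTK act with the adaptor BLNK to switch on phospholipase PLCG2, whose products raise calcium and engage protein kinase C beta, BCL10 with MALT1, and RAS. PI3 kinase and AKT form a parallel arm, while CD22, CD72, FCGR2B and the phosphatases SHP-1 and SHIP1 restrain the signal. Chronic lymphocytic leukaemia cells are known to depend on this pathway, and BTK inhibitors are used to treat the disease.

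Promoter sequence is printed for 3 members around which the results turn: Cd79a, the level to which the other members were set, Plcg2, whose mean was the lowest relative to the controls, and Blnk, whose ratio to Cd79a varied least. Sequences are from RefSeq (GRCm38.p6), 5′ to 3′ on the strand of the gene, and capitals mark a motif match. The Cd79a stretch is chr7:24897247-24897380 on the plus strand, the Plcg2 stretch chr8:117498025-117498274 on the plus strand, and the Blnk stretch chr19:40994333-40994362 on the minus strand.
Cd79a: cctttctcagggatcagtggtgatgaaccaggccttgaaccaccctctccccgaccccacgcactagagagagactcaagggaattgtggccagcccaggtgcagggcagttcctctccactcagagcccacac
Plcg2: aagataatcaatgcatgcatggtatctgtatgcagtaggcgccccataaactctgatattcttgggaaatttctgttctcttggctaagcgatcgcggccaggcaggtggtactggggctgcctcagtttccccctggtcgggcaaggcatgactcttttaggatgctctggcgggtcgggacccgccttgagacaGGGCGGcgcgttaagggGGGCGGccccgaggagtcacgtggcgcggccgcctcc
Blnk: tactggaagggATTTGCATgcccaataagg

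A RefSeq window of 250 bases before the start was at hand for 27 of the 32 members, and 4 motifs were searched on both strands. For members the first window listed for each symbol was counted, while the shares over all windows count every window listed. The octamer ATTTGCAT, which OCT factors read in B cell genes, was in the windows of Blnk and Prkcb, and in 1.6% of all 32851 windows. The palindromic EBF motif was in the Cd22 window alone among members, and in 0.779% of all windows. The PU.1 motif GAGGAAGT was in 4 member windows (Cd72, Inpp5d, Rasgrp3 and Vav1) and in 2.44% of all windows. The GC box GGGCGG was in 11 member windows, Plcg2 with 2 copies, and in 32.7% of all windows. These are matches of letters only, and a site whose letters differ from those searched is missed, so no match does not mean no site. The Blnk window lies within the span GENCODE gives for the gene. Of the searched windows, the printed stretches hold 134 bases for Cd79a, those before its GENCODE start, all 250 for Plcg2, and 30 around the octamer for Blnk.

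Values are FPKM, fragments per kilobase of a transcript corrected for library total, so levels of different genes can be compared per length. From the steps between low FPKM values the libraries were estimated to hold 39370000 to 46296000 fragments, and the lowest member value, Rasgrp3 in knockdown replicate 4, corresponds to about 928 fragments. No member was at 0 in any library. Kdm1a (ENSMUSG00000036940, chr4:136550540-136602723, minus strand) had 20.2, 21.04, 15.5 and 15.6 FPKM in knockdown replicates 1, 2, 4 and 5, against 24.2, 21.2, 24.1 and 31.1 FPKM in control replicates 1 to 4. The groups did not overlap, knockdown replicate 2 lay just under control replicate 2, and the knockdown mean was 71.9% of the control mean (two-sided exact permutation p = 0.0286, the smallest that 70 assignments allow). Leaving out 1 library gave p from 0.0286 to 0.114, the highest without control replicate 4. In the test across all genes described next, the adjusted p of Kdm1a was 0.223.

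Library differences of 2 kinds touch the members. Knockdown replicate 4 was rich in erythroid transcripts, with 29618 FPKM summed over 11 erythroid markers against 978 to 2565 in the other knockdown libraries and 3153 to 8378 in the controls, and its B cell marker sum was 528 FPKM, against 1316 to 1788 in the other knockdown libraries and 1649 to 2552 in the controls. Y-linked Ddx3y was listed at 0 in all 4 knockdown libraries and in control replicate 1, and had 11.6, 31.5 and 19.7 FPKM in control replicates 2 to 4; the labels give no sex, and its part in the results was not tested. In bulk RNA of mixed cells, fewer cells of a type and less RNA per cell cannot be told apart. Where leaving out knockdown replicate 4 moved a member's log2 difference by over 1.5 times, the value without it stands beside the main one.

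Most of the chain, from Cd79a and Blk to the phosphatases, had a lower mean level in the knockdown libraries than in the controls, Plcg2 the most, while Fyn and Akt1 had a higher one. Without knockdown replicate 4 most of these differences were smaller. No member's difference passed the test. Each gene was tested with limma on log2(FPKM + 1), where differences are knockdown minus control and understate the change of low genes, and p-values were adjusted over 12890 genes by the Benjamini-Hochberg method. None of the 32 members passed the adjusted threshold of 0.05, which 1.74% of all genes tested passed, 1.63% higher and 0.109% lower in knockdown. At an unadjusted p under 0.05 there were 2 members, Fyn (higher) and Plcg2 (lower), a share of 6.25% beside 19.2% of all genes (15.8% higher and 3.41% lower). The estimate was negative for 26 members and positive for 6, while 36.3% of all genes had a negative estimate; of the 6, Btk, Pik3r1 and Cd81 were negative under median-of-ratios scaling. The median over the members was -0.39, and over all genes it was 0.13. Leaving out knockdown replicate 4 moved the members' median to -0.11, and leaving out both replicate 4 libraries moved it to -0.19.

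**Figure D1:**
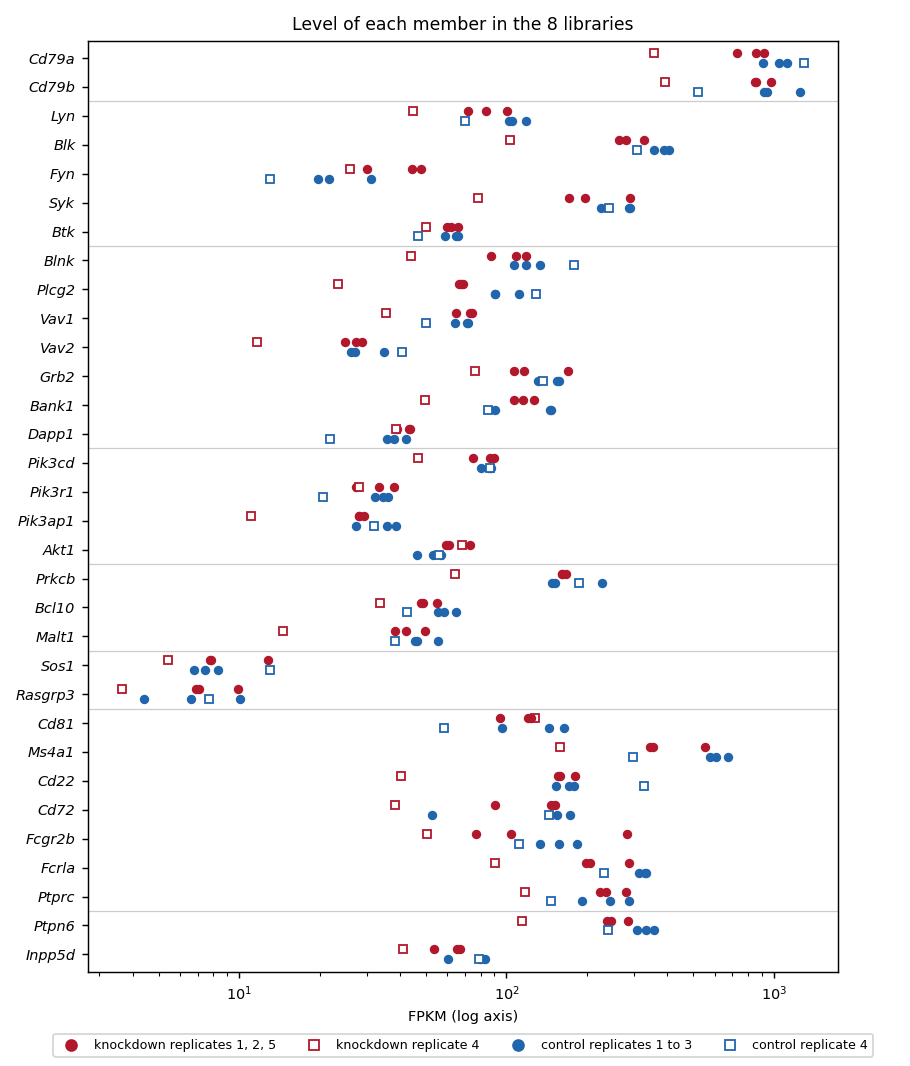
FPKM (log axis) of each member in each library, in order of role; red marks are knockdown, blue marks control, and open squares the replicate 4 libraries. Knockdown replicate 4 was the lowest of all 8 libraries in 26 members.

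The receptor-associated chains were the most abundant members. Cd79a (ENSMUSG00000003379, chr7:24897381-24902197, plus strand) had 922, 860.4, 355 and 726 FPKM in the knockdown libraries, against 1046, 909, 1121 and 1300.1 FPKM in the controls, listed in the replicate order used for Kdm1a, which is kept throughout. Its means were 716 ± 254 FPKM in knockdown and 1094 ± 163 FPKM in control (SD, n = 4 each; log2 difference -0.69, SE 0.32, 95% confidence interval -1.41 to 0.034, adjusted p = 0.278, and log2 difference -0.38 without knockdown replicate 4). Every knockdown library other than replicate 1 lay under every control, and replicate 1 lay only above control replicate 2. Its partner Cd79b had 855, 847, 391 and 972 FPKM in the knockdown libraries, against 942, 923, 1254 and 521 FPKM in the controls (log2 difference -0.26, SE 0.37, 95% confidence interval -1.08 to 0.56, adjusted p = 0.713, and log2 difference 0.036 without knockdown replicate 4). The lowest library of each group was replicate 4, and the other 6 overlapped. In control replicate 4 the 2 chains parted, since Cd79a had its highest value there and Cd79b the lowest of the controls.

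Among the 5 tyrosine kinases, Blk, a SRC family kinase found mainly in B cells, had 326, 263, 103 and 279 FPKM in the knockdown libraries, against 387, 358, 406 and 307 FPKM in the controls (log2 difference -0.70, SE 0.34, 95% confidence interval -1.46 to 0.069, adjusted p = 0.297, and log2 difference -0.33 without knockdown replicate 4). Knockdown replicate 1 alone exceeded a control, replicate 4. Lyn, the SRC family kinase that phosphorylates the receptor tails and also inhibitory receptors, had 83.9, 71.9, 44.9 and 100.2 FPKM in the knockdown libraries, against 102, 105, 118 and 70.2 FPKM in the controls (log2 difference -0.42, SE 0.27, 95% confidence interval -1.03 to 0.18, adjusted p = 0.402, and log2 difference -0.20 without knockdown replicate 4). The groups overlapped, with knockdown replicate 5 near the controls. Syk, the kinase that docks on the phosphorylated tails, had 196, 171, 78.5 and 291 FPKM in the knockdown libraries, against 287, 225, 290.4 and 241 FPKM in the controls (log2 difference -0.64, SE 0.35, 95% confidence interval -1.43 to 0.15, adjusted p = 0.345, and log2 difference -0.28 without knockdown replicate 4). Its knockdown values spanned a 3.71-fold range and its control values a 1.29-fold range. Knockdown replicate 5 was the highest of all 8 libraries for Syk and replicate 4 the lowest.

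Btk, the kinase that phosphorylates PLCG2 and the target of ibrutinib, gave the estimate nearest to 0. Its levels were 62.1, 65.9, 49.9 and 59.7 FPKM in the knockdown libraries, against 58.8, 64.5, 65.9 and 46.8 FPKM in the controls (log2 difference 0.015, SE 0.17, 95% confidence interval -0.37 to 0.40, adjusted p = 0.971, and log2 difference 0.095 without knockdown replicate 4). The width of this interval means that equality is not shown. Btk lies on the X chromosome (ENSMUSG00000031264, chrX:134542336-134583570, minus strand); Xist, which is transcribed from the inactive X, had 175, 135, 95.7 and 94.9 FPKM in the knockdown libraries, against 109.9 FPKM in control replicate 1 and at most 0.128 FPKM in the other controls. The part of this imbalance in the Btk values was not tested.

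Fyn, a SRC family kinase used by both T and B cells, had a higher mean in knockdown than in control, but did not pass the adjusted threshold. Fyn (ENSMUSG00000019843, chr10:39368855-39565381, plus strand) had 47.9, 44.2, 26.0 and 30.2 FPKM in the knockdown libraries, against 31.2, 19.7, 21.7 and 13.0 FPKM in the controls. The means were 37.1 ± 10.6 FPKM in knockdown and 21.4 ± 7.51 FPKM in control (log2 difference 0.78, SE 0.29, 95% confidence interval 0.14 to 1.43, adjusted p = 0.191), and only control replicate 1 reached into the knockdown range. The summed level of 10 T cell markers was 689, 613, 310.2 and 497 FPKM in the knockdown libraries, against 708, 378, 516 and 270.5 FPKM in the controls. Within each group the libraries ranked in the same order by this sum as by Fyn, which was seen only afterwards. In knockdown replicates 4 and 5 that order rests on Cd2, with 99.6 and 287 FPKM, whose estimate was negative (-0.28). Of the T cell markers 9 of 10 had a positive estimate and none passed, while 36.3% of all genes had a negative estimate. The part of T cells in the Fyn values was not tested.

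Among the adaptors and signalosome members, Plcg2, which cleaves a membrane lipid to raise calcium, had the most negative estimate of all members. Plcg2 (ENSMUSG00000034330, chr8:117498291-117635142, plus strand) had 66.6, 67.9, 23.4 and 69.1 FPKM in the knockdown libraries, against 90.6, 111, 90.4 and 129 FPKM in the controls. All 4 knockdown values lay under all 4 control values, and 3 of them were within 3 FPKM of each other. The knockdown libraries averaged 56.7 ± 22.3 FPKM and the controls 105 ± 18.6 FPKM (SD, n = 4 each; log2 difference -0.99, SE 0.34, 95% confidence interval -1.75 to -0.22, adjusted p = 0.172), a ratio of 53.8%. Without knockdown replicate 4 the log2 difference was -0.61 (adjusted p = 0.152), and without both replicate 4 libraries it was -0.51. The groups stayed apart in 2 members in all, Plcg2 and Akt1, which is 6.25% of members beside 13.1% of all genes tested (11.2% higher and 1.9% lower).

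Blnk, the adaptor that brings BTK and PLCG2 together, had 118, 109, 44.0 and 87.2 FPKM in the knockdown libraries, against 118, 107, 134 and 179 FPKM in the controls (log2 difference -0.65, SE 0.31, 95% confidence interval -1.35 to 0.058, adjusted p = 0.294, and log2 difference -0.34 without knockdown replicate 4). Knockdown replicates 1 and 2 were within the control range. Vav2, a guanine nucleotide exchange factor, had 28.8, 27.5, 11.7 and 25.0 FPKM in the knockdown libraries, against 26.2, 34.9, 27.1 and 40.6 FPKM in the controls (log2 difference -0.51, SE 0.29, 95% confidence interval -1.15 to 0.14, adjusted p = 0.361, and log2 difference -0.22 without knockdown replicate 4). Knockdown replicates 1 and 2 again lay among the controls. Vav1, the form of the same factor restricted to blood cells, had 73.3, 74.6, 35.6 and 64.9 FPKM in the knockdown libraries, against 64.2, 71.3, 71.6 and 49.9 FPKM in the controls (log2 difference -0.092, SE 0.26, 95% confidence interval -0.66 to 0.48, adjusted p = 0.863, and log2 difference 0.15 without knockdown replicate 4). Apart from knockdown replicate 4 the knockdown values of Vav1 lay at or above 64.9 FPKM, inside or above the control range.

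Grb2, an adaptor that links receptors to SOS proteins, had 116, 107, 76.3 and 170.0 FPKM in the knockdown libraries, against 132, 157, 155 and 137 FPKM in the controls (log2 difference -0.36, SE 0.24, 95% confidence interval -0.89 to 0.18, adjusted p = 0.424, and log2 difference -0.17 without knockdown replicate 4), with knockdown replicate 5 the highest of all libraries and replicate 4 the lowest. Bank1, a B cell scaffold for LYN and the inositol trisphosphate receptor, had 116, 107, 49.7 and 127 FPKM in the knockdown libraries, against 146, 90.7, 147 and 85.6 FPKM in the controls (log2 difference -0.27, SE 0.32, 95% confidence interval -1.0 to 0.46, adjusted p = 0.667, and log2 difference 0.034 without knockdown replicate 4). Knockdown replicates 1, 2 and 5 lay between the upper pair of controls, replicates 1 and 3, and the lower pair. Dapp1, an adaptor that binds PI3 kinase products at the membrane, was the adaptor with a positive estimate. Dapp1 stood at 39.1, 43.2, 38.6 and 43.5 FPKM in the knockdown libraries, against 37.9, 35.8, 42.0 and 21.9 FPKM in the controls (log2 difference 0.28, SE 0.21, 95% confidence interval -0.19 to 0.76, adjusted p = 0.469). The knockdown libraries were within 5 FPKM of each other, replicate 4 included, and control replicate 4 was the low value, without which the log2 difference was 0.089.

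The 4 members of the PI3 kinase and AKT arm gave 2 negative and 2 positive estimates. Pik3cd, the catalytic subunit p110 delta and target of idelalisib, had 89.5, 87.0, 46.6 and 74.8 FPKM in the knockdown libraries, against 86.4, 80.1, 87.7 and 86.9 FPKM in the controls (log2 difference -0.24, SE 0.22, 95% confidence interval -0.72 to 0.25, adjusted p = 0.564, and log2 difference -0.029 without knockdown replicate 4). The controls were nearly level, knockdown replicate 2 lay among them and replicate 1 just above. Pik3ap1, the adaptor BCAP that brings PI3 kinase to the membrane, had 28.1, 29.2, 11.1 and 28.1 FPKM in the knockdown libraries, against 35.6, 38.6, 27.4 and 31.9 FPKM in the controls (log2 difference -0.53, SE 0.30, 95% confidence interval -1.2 to 0.14, adjusted p = 0.353, and log2 difference -0.21 without knockdown replicate 4). Knockdown replicates 1, 2 and 5 sat at the lower end of the control range and replicate 4 far below it. Pik3r1, the regulatory subunit p85 alpha, had 27.3, 33.3, 28.1 and 38.1 FPKM in the knockdown libraries, against 32.4, 35.9, 34.4 and 20.7 FPKM in the controls (log2 difference 0.055, SE 0.21, 95% confidence interval -0.42 to 0.53, adjusted p = 0.904, and log2 difference 0.11 without knockdown replicate 4), and its groups overlapped throughout.

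Akt1, the serine kinase at the end of this arm, was higher in every knockdown library than in every control. Akt1 (ENSMUSG00000001729, chr12:112653821-112674884, minus strand) had 60.8, 73.2, 68.0 and 59.6 FPKM in the knockdown libraries, against 46.2, 53.0, 56.9 and 56.0 FPKM in the controls, and knockdown replicate 4 was not low. The means were 65.4 ± 6.38 FPKM in knockdown and 53.0 ± 4.88 FPKM in control (SD, n = 4 each; log2 difference 0.30, SE 0.15, 95% confidence interval -0.046 to 0.64, adjusted p = 0.318). The knockdown mean was 123% of the control mean, and the difference did not pass the adjusted threshold. AKT1 is the kinase that the TCL1A protein binds and activates, and the transgene is present in both groups.

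**Figure D2:**
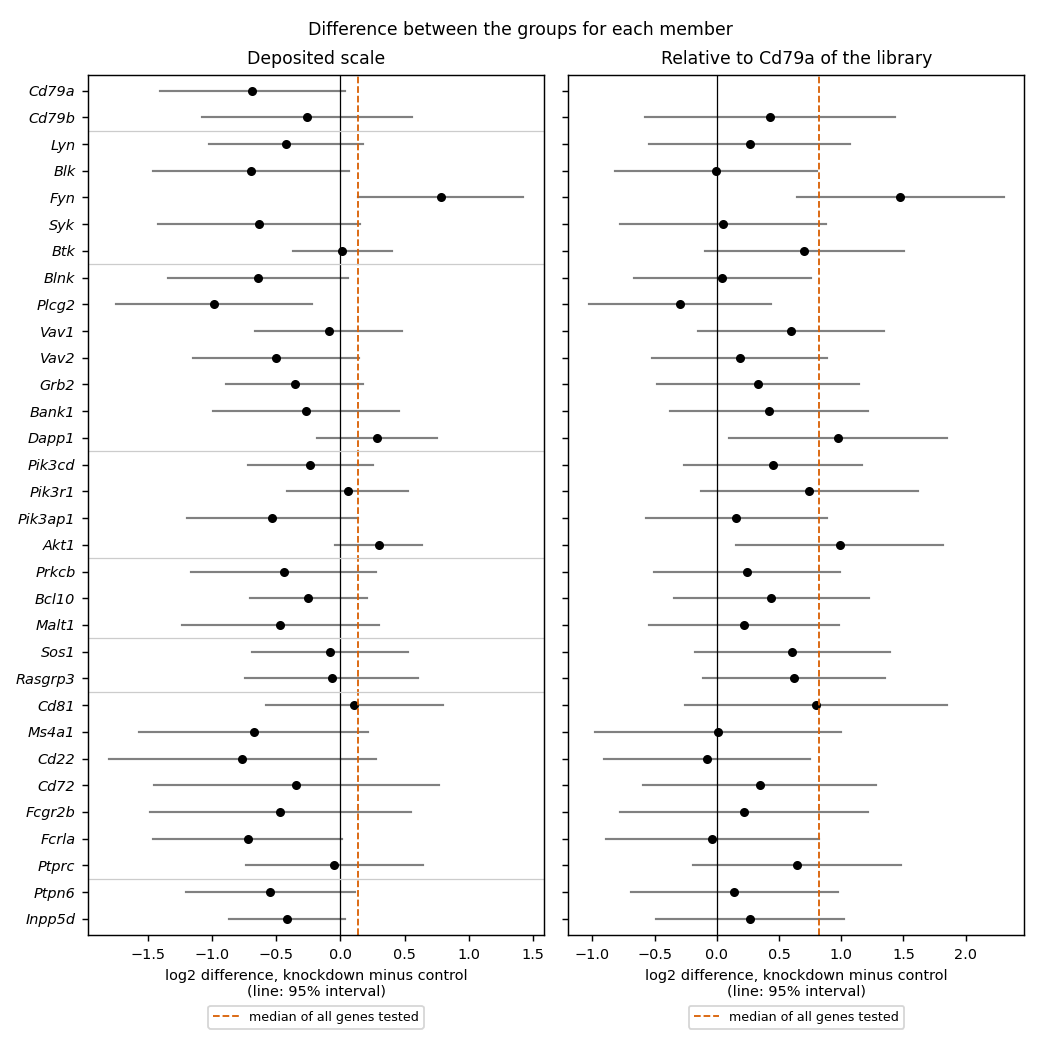
Log2 difference, knockdown minus control, with its 95% confidence interval for each member, as FPKM (left) and relative to the Cd79a value of the same library (right); dashed lines mark the median of all genes tested, 0.13 and 0.82. As FPKM, 26 of 32 estimates lie under 0, and relative to Cd79a 27 of 31 lie above 0.

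The relay from protein kinase C to NF-kB was represented by 3 members, all with a negative estimate that came nearer to 0 without knockdown replicate 4. Prkcb, protein kinase C beta, had 167, 161, 64.0 and 162 FPKM in the knockdown libraries, against 152, 148, 228 and 187 FPKM in the controls (log2 difference -0.44, SE 0.32, 95% confidence interval -1.17 to 0.28, adjusted p = 0.462, and log2 difference -0.11 without knockdown replicate 4). Apart from replicate 4 the knockdown libraries lay between 161 and 167 FPKM, inside the control range. Malt1, a protease and scaffold that works with BCL10 towards NF-kB, had 42.2, 38.4, 14.6 and 49.5 FPKM in the knockdown libraries, against 45.5, 55.6, 46.5 and 38.2 FPKM in the controls (log2 difference -0.47, SE 0.34, 95% confidence interval -1.23 to 0.30, adjusted p = 0.464, and log2 difference -0.093 without knockdown replicate 4), and Bcl10 had 48.8, 48.1, 33.7 and 55.2 FPKM in the knockdown libraries, against 58.4, 55.5, 64.5 and 42.5 FPKM in the controls (log2 difference -0.25, SE 0.20, 95% confidence interval -0.71 to 0.20, adjusted p = 0.51, and log2 difference -0.11 without knockdown replicate 4). In both genes the groups overlapped, and knockdown replicate 4 was the lowest library.

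The RAS exchange factors Sos1 and Rasgrp3 were the least abundant members. Sos1, which is brought to the membrane by GRB2, had 7.80, 7.83, 5.42 and 12.8 FPKM in the knockdown libraries, against 8.33, 6.80, 7.48 and 13.0 FPKM in the controls, with a log2 difference of -0.081 (adjusted p = 0.891) and of 0.087 without knockdown replicate 4. Rasgrp3, which responds to diacylglycerol made by PLCG2, had 9.94, 6.90, 3.65 and 7.11 FPKM in the knockdown libraries, against 6.59, 4.40, 10.0 and 7.73 FPKM in the controls, with a log2 difference of -0.069 (adjusted p = 0.917) and of 0.16 without knockdown replicate 4. For both the group means differed by less than 5% and by less than the SD of either group. Sos1 overlaps the annotated gene Arhgef33, and whether reads were assigned by strand is not known.

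The 7 co-receptors and surface modulators included the 3 members with the widest range among knockdown libraries, Fcgr2b, Cd22 and Cd72. Ms4a1, the CD20 antigen to which rituximab binds, had 353, 345, 159 and 551 FPKM in the knockdown libraries, against 578, 609, 676 and 297 FPKM in the controls (log2 difference -0.68, SE 0.40, 95% confidence interval -1.57 to 0.21, adjusted p = 0.37, and log2 difference -0.34 without knockdown replicate 4). Control replicate 4 was lower than 3 of the knockdown libraries. Cd22, a sialic acid binding receptor that recruits SHP-1, had 158, 156, 40.3 and 180.3 FPKM in the knockdown libraries, against 153, 179, 172 and 326 FPKM in the controls (log2 difference -0.77, SE 0.46, 95% confidence interval -1.81 to 0.28, adjusted p = 0.384, and log2 difference -0.27 without knockdown replicate 4). The other 6 libraries lay between 153 and 180.3 FPKM, and the extremes were knockdown replicate 4 at the low end and control replicate 4 at the high end. Without these 2 libraries the log2 difference of Cd22 was -0.03.

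Fcrla, an intracellular Fc receptor-like protein of B cells, had 205, 199, 90.8 and 286 FPKM in the knockdown libraries, against 333, 330.4, 312 and 232 FPKM in the controls (log2 difference -0.72, SE 0.33, 95% confidence interval -1.46 to 0.014, adjusted p = 0.267, and log2 difference -0.40 without knockdown replicate 4). Knockdown replicate 5 was higher than control replicate 4, and otherwise the groups were apart. Cd72, an inhibitory receptor that also recruits SHP-1, had 152, 147, 38.2 and 90.2 FPKM in the knockdown libraries, against 173, 154, 52.8 and 144 FPKM in the controls (log2 difference -0.35, SE 0.50, 95% confidence interval -1.46 to 0.77, adjusted p = 0.72, and log2 difference 0.079 without knockdown replicate 4), and control replicate 3 lay near knockdown replicate 4 at the low end. Cd72 overlaps the annotated gene Tesk1 on the other strand. Fcgr2b, the inhibitory Fc gamma receptor that works through SHIP1, had 104, 77.1, 50.5 and 283 FPKM in the knockdown libraries, against 157, 134, 183 and 112 FPKM in the controls (log2 difference -0.47, SE 0.45, 95% confidence interval -1.49 to 0.55, adjusted p = 0.583, and log2 difference -0.13 without knockdown replicate 4). Its knockdown values spanned a 5.59-fold range, the widest of any member in either group, with replicate 5 the highest of all libraries.

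Cd81, a tetraspanin of the B cell surface, was, with Akt1, a member in which knockdown replicate 4 was not low. Cd81 stood at 94.5, 121, 128 and 124 FPKM in the knockdown libraries, against 95.9, 164, 144 and 58.3 FPKM in the controls (log2 difference 0.11, SE 0.31, 95% confidence interval -0.58 to 0.80, adjusted p = 0.866, and log2 difference 0.063 without knockdown replicate 4). Ptprc, the CD45 phosphatase that frees SRC family kinases for activation and that most white blood cells carry, had 279, 235, 117 and 224 FPKM in the knockdown libraries, against 287, 192, 245 and 147 FPKM in the controls (log2 difference -0.047, SE 0.31, 95% confidence interval -0.74 to 0.65, adjusted p = 0.946, and log2 difference 0.22 without knockdown replicate 4). In both genes the groups overlapped, and Ptprc was lowest in the replicate 4 library of each group.

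Both inhibitory phosphatases had a lower mean in knockdown, nearer to the control mean without replicate 4, and neither passed the threshold. Ptpn6, which encodes SHP-1, had 237, 285, 115 and 247 FPKM in the knockdown libraries, against 308, 357, 333 and 241 FPKM in the controls (log2 difference -0.55, SE 0.29, 95% confidence interval -1.21 to 0.11, adjusted p = 0.333, and log2 difference -0.26 without knockdown replicate 4). Only control replicate 4 lay within the knockdown range, under knockdown replicates 2 and 5. Inpp5d, which encodes SHIP1, the lipid phosphatase that removes the PI3 kinase product, had 65.2, 67.3, 40.9 and 53.6 FPKM in the knockdown libraries, against 83.2, 79.4, 60.5 and 78.7 FPKM in the controls (log2 difference -0.42, SE 0.20, 95% confidence interval -0.87 to 0.032, adjusted p = 0.289, and log2 difference -0.28 without knockdown replicate 4). Control replicate 3 was the control that lay among the knockdown libraries. By role, the median estimate was -0.47 over the receptor chains, -0.42 over the tyrosine kinases, -0.36 over the adaptors, -0.090 over the PI3 kinase and AKT members, -0.44 over the protein kinase C relay, -0.075 over the RAS exchange factors, -0.47 over the surface modulators and -0.48 over the phosphatases.

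Knockdown replicate 4 was the low library for most members. Its value was the lowest of its group in 29 members, the exceptions being Akt1, Cd81 and Pik3r1. As a share of the mean of the other 3 knockdown libraries it ranged from 24.4% for Cd22 to 113% for Cd81, with a median of 44.3% over members and 95.5% over all genes tested. Under 50% of that mean lay 19 members, and at or above it Akt1 and Cd81. Summed over all 32 members the libraries had 5180.2, 4978, 2382 and 5569 FPKM in knockdown, against 6108, 5888, 6686 and 5259.7 FPKM in control. Replicate 4 thus had the lowest sum in each group. The part of the erythroid and B cell marker levels of that knockdown library in the member values was not tested.

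Control replicate 4 stood apart in another way, since its members did not move together. It lay above the mean of the other controls in 12 members and below it in 20. The highest were Cd22 at 194%, Sos1 at 173%, Blnk at 149%, Vav2 at 138%, Plcg2 at 132% and Cd79a at 127% of that mean. The lowest were Cd81 at 43.3%, Ms4a1 at 47.8%, Cd79b at 50.1%, Fyn at 53.8% and Dapp1 at 56.9%. FPKM summed to 572660 over all genes in this library and to between 671730 and 762890 in the other 7.

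**Figure D3:**
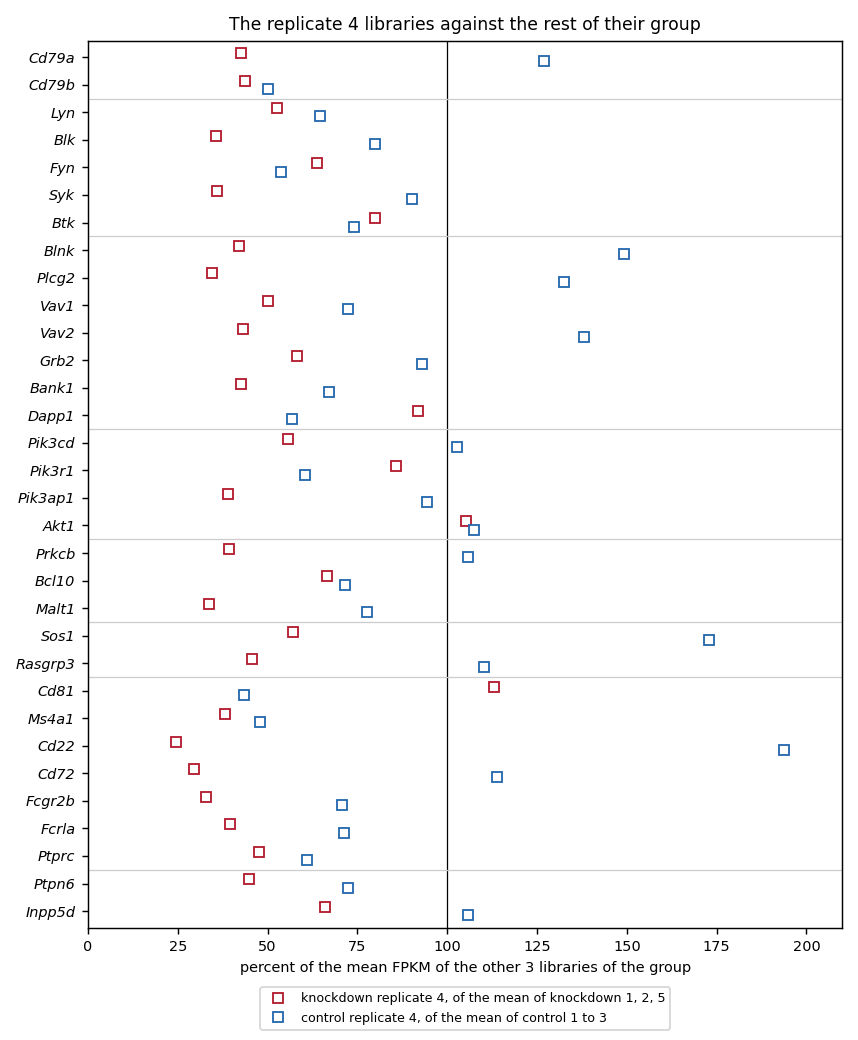
FPKM in the replicate 4 library of each group as a percentage of the mean of the other 3 libraries of that group, by member; red squares are knockdown, blue squares control, and the line marks 100%. Knockdown replicate 4 lies under the line in all members but Akt1 and Cd81, and control replicate 4 lies on both sides.

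Each member was also set to the Cd79a value of its own library. This asks whether a member differs beyond the level of the receptor chain, and the same denominator enters every member and every gene. In this comparison none of the other 31 members passed the adjusted threshold, which 3.46% of 12889 genes passed, 3.43% higher and 0.031% lower. At an unadjusted p under 0.05 there were 3 members, Fyn, Akt1 and Dapp1, all higher, a share of 9.68% beside 43.2% of all genes (43.1% higher and 0.155% lower). The groups were apart in 5 members, those 3 with Vav1 and Pik3cd, all higher in knockdown, a share of 16.1% beside 38.5% of all genes (38.4% higher and 0.0853% lower). The estimate was positive for 27 members and negative for 4, while 4.04% of all genes had a negative one. The median was 0.33 over members and 0.82 over all genes.

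Fyn came nearest to the threshold. It amounted to 5.19, 5.14, 7.32 and 4.16 percent of Cd79a in the knockdown libraries, against 2.98, 2.17, 1.93 and 1.0 percent in the controls, and its lowest knockdown value exceeded its highest control value. The means were 5.45 ± 1.33 percent in knockdown and 2.02 ± 0.815 percent in control (SD, n = 4 each; log2 difference 1.47, SE 0.39, 95% confidence interval 0.64 to 2.31, adjusted p = 0.0518). Without knockdown replicate 4 the adjusted p was 0.0478, and without knockdown replicate 1 it was 0.0283. Leaving out any other single library, Fyn did not pass. With Cd79b in place of Cd79a the log2 difference of Fyn was 1.04 (adjusted p = 0.372).

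Akt1 amounted to 6.59, 8.51, 19.1 and 8.21 percent of Cd79a in the knockdown libraries, against 4.41, 5.83, 5.08 and 4.31 percent in the controls (log2 difference 0.99, SE 0.39, 95% confidence interval 0.15 to 1.82, adjusted p = 0.0969). The groups were apart, and knockdown replicate 4, where Cd79a was low and Akt1 was not, stood far above the rest. Dapp1 amounted to 4.23, 5.02, 10.9 and 5.99 percent in the knockdown libraries, against 3.63, 3.94, 3.75 and 1.69 percent in the controls (log2 difference 0.97, SE 0.41, 95% confidence interval 0.10 to 1.85, adjusted p = 0.102), again with replicate 4 at the outer end of each group. Pik3cd was at 9.70, 10.1, 13.1 and 10.3 percent in the knockdown libraries, against 8.26, 8.81, 7.82 and 6.69 percent in the controls (log2 difference 0.45, SE 0.33, 95% confidence interval -0.26 to 1.17, adjusted p = 0.251). Vav1 was at 7.94, 8.67, 10.0 and 8.94 percent in the knockdown libraries, against 6.14, 7.84, 6.38 and 3.84 percent in the controls (log2 difference 0.60, SE 0.35, 95% confidence interval -0.15 to 1.35, adjusted p = 0.168).

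Plcg2 kept a negative estimate relative to Cd79a, but its groups then overlapped. It amounted to 7.22, 7.89, 6.58 and 9.51 percent of Cd79a in the knockdown libraries, against 8.66, 12.3, 8.06 and 9.93 percent in the controls (log2 difference -0.30, SE 0.34, 95% confidence interval -1.03 to 0.43, adjusted p = 0.448). Blk, Cd22 and Fcrla were the other members with a negative estimate, at -0.0069, -0.078 and -0.035.

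Blnk followed Cd79a more closely than any other member. It amounted to 12.8, 12.7, 12.4 and 12.0 percent of Cd79a in the knockdown libraries, against 11.3, 11.8, 12.0 and 13.7 percent in the controls, while its FPKM ranged from 44.0 to 179. The means were 12.5 ± 0.355 percent in knockdown and 12.2 ± 1.07 percent in control (SD, n = 4 each; log2 difference 0.043, SE 0.33, 95% confidence interval -0.67 to 0.75, adjusted p = 0.91). Across the 8 libraries the coefficient of variation of the ratio was 6.11%, beside 34.2% for the FPKM of Blnk itself, and none of the 12889 genes had a lower one. Blnk was singled out after these values were seen, and no test was made. Next among members came Vav2 at 15.0%, Prkcb at 15.3% and Blk at 16.1%.

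Other members varied more relative to Cd79a than in FPKM. The coefficient of variation of the ratio was 62.7% for Akt1, 62.1% for Cd81, 60.6% for Fcgr2b and 56.2% for Fyn. For Akt1 the FPKM varied by 14.3% and for Btk by 12.2%, the lowest among members. In 17 of 31 members the ratio was steadier than the FPKM. The median over members was 27.2%, and over all genes it was 58.5%.

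A change of denominator moves the log2 difference of members and all other genes by the same amount, by construction. Cd79b amounted to 92.7, 98.5, 110.0 and 134 percent of Cd79a in the knockdown libraries, against 90.0, 101, 112 and 40.0 percent in the controls, with control replicate 4 the one library below 90 percent. With Cd79b as the denominator the median was -0.13 over members, both receptor chains left out, 12 of them positive, and 0.39 over all genes. With the mean of 9 B cell markers as the denominator the median was -0.050 over members, Cd79a left out, 14 of them positive, and 0.44 over all genes.

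**Figure D4:**
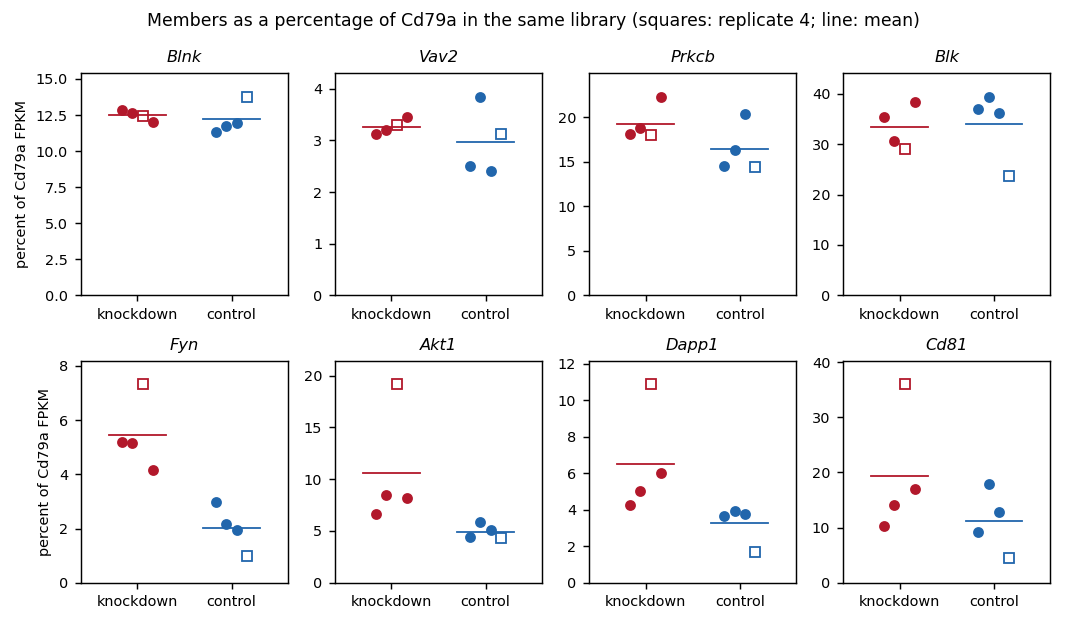
Percentage of the Cd79a FPKM of the same library for 8 members, with lines at the group means and open squares for replicate 4. Blnk lies between 11.3 and 13.7 percent in all 8 libraries, while Fyn, Akt1 and Dapp1 are higher in every knockdown library than in every control.

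The rest of the pathway was read from a list of 76 further genes, of which 75 were expressed enough to be tested (Pik3r3 was not). None passed the adjusted threshold. At an unadjusted p under 0.05 there were 8 higher and 4 lower, a share of 16.0% beside 19.2% of all genes. The groups were apart in 7 of the 75, 5 higher and 2 lower in knockdown. This is a share of 9.33%, beside 13.1% of all genes (11.2% higher and 1.9% lower). The median was -0.04, against 0.13 over all genes, and 40 estimates (53.3%) were negative, against 36.3% over all genes. The 6 smallest p-values belonged to 3 PI3 kinase subunits, a tyrosine kinase, a phosphatase and a receptor.

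The PI3 kinase subunits had estimates of different sign. Pik3r2, the regulatory subunit p85 beta, had 19.9, 28.5, 30.99 and 23.3 FPKM in the knockdown libraries, against 14.4, 16.0, 13.4 and 18.4 FPKM in the controls (log2 difference 0.68, SE 0.19, 95% confidence interval 0.26 to 1.10, adjusted p = 0.114). Pik3cb, the catalytic subunit p110 beta, had 3.87, 4.64, 7.56 and 4.21 FPKM in the knockdown libraries, against 3.09, 3.38, 2.48 and 1.93 FPKM in the controls (log2 difference 0.69, SE 0.23, 95% confidence interval 0.17 to 1.2, adjusted p = 0.164). Both were higher in every knockdown library than in every control, as were 11.2% of all genes tested. Pik3cg, the catalytic subunit p110 gamma that answers to G protein coupled receptors, had 16.4, 14.4, 8.57 and 12.3 FPKM in the knockdown libraries, against 29.9, 33.1, 23.7 and 14.1 FPKM in the controls (log2 difference -0.88, SE 0.29, 95% confidence interval -1.53 to -0.24, adjusted p = 0.159). Here control replicate 4 lay among the knockdown libraries.

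The phosphatase Ptpn22, which acts on SRC family kinases, had 149, 127, 56.2 and 119 FPKM in the knockdown libraries, against 246, 151, 269.9 and 233 FPKM in the controls (log2 difference -1.04, SE 0.32, 95% confidence interval -1.76 to -0.33, adjusted p = 0.14), and every knockdown library lay under every control. Fgr, a SRC family kinase of myeloid cells and some B cells, had 13.7, 15.7, 13.7 and 13.7 FPKM in the knockdown libraries, against 9.14, 10.7, 8.77 and 5.10 FPKM in the controls (log2 difference 0.73, SE 0.22, 95% confidence interval 0.24 to 1.21, adjusted p = 0.131). Lair1, an inhibitory collagen receptor of many white blood cells, had 7.27, 7.79, 10.5 and 9.23 FPKM in the knockdown libraries, against 4.87, 5.71, 7.77 and 2.40 FPKM in the controls (log2 difference 0.72, SE 0.28, 95% confidence interval 0.084 to 1.35, adjusted p = 0.216). The groups were apart for Fgr and overlapped for Lair1.

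Marker sums of several cell types were read beside these values. B cell markers summed to 528 to 1788 FPKM in knockdown, against 1649 to 2552 FPKM in control. The estimate was negative for 7 of 9, beside 36.3% of all genes, and none passed the threshold. Their mean log2 level was 6.71, 6.91, 5.13 and 6.17 in the knockdown libraries, against 6.41, 6.75, 6.29 and 6.69 in the controls, so knockdown replicate 2 was the highest. Of the 2 positive ones, Fcer2a (log2 difference 1.65, adjusted p = 0.101 by limma) was higher in every knockdown library than in every control, as were 11.2% of all genes tested. All 9 B cell markers were detected in every library, and no defining marker of the other cell types listed was at 0 in any library. Plasma cell markers summed to 455 to 972 FPKM in knockdown, against 943 to 1640.2 FPKM in control (8 of 8 negative, none called).

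Markers of the myeloid lineages did not share one direction. Those of monocytes and macrophages summed to 339.5 to 719 FPKM in knockdown, against 107 to 305 FPKM in control, apart between the groups, with 10 of 10 estimates positive and none called. Megakaryocyte markers summed to 20.7 to 64.0 FPKM in knockdown, against 6.66 to 14.6 FPKM in control, and 2 of 5 tested were called higher, as were 1.63% of all genes. Of the 5, 4 had a positive estimate, and Ppbp had a negative one (-0.63, adjusted p = 0.177 by limma). Neutrophil markers summed to 29.7 to 211 FPKM in knockdown, against 70.4 to 466 FPKM in control, with 6 of 9 estimates negative and 3 positive. The granule genes Ngp, Camp and Ltf were called lower, as were 0.109% of all genes, while Mpo, a gene of early granulocyte precursors, had 24.9, 6.91, 34.4 and 10.04 FPKM in the knockdown libraries, against 6.07, 1.17, 3.08 and 3.36 FPKM in the controls (adjusted p = 0.083). Erythroid markers had 5 of 11 positive estimates and, beside 1.63% of all genes, 1 was called higher. That was Gata1, a transcription factor of erythroid and megakaryocyte cells, with 21.2, 51.9, 129.8 and 30.1 FPKM in the knockdown libraries, against 6.44, 6.77, 5.46 and 5.90 FPKM in the controls (adjusted p = 0.0254). Klf1, Epor and Car1, without passing, were likewise higher in every knockdown library than in every control, not in knockdown replicate 4 alone. Apart in this direction were 11.2% of all genes tested. The list did not share this direction, since 6 of 11 estimates were negative. Hbb-bs had 319, 717, 15844 and 629 FPKM in the knockdown libraries, against 1527, 4752, 4806 and 2298 FPKM in the controls. These marker genes were picked after their values were seen. Natural killer cell markers summed to 68.6 to 111 FPKM in knockdown, against 18.8 to 129 FPKM in control, and dendritic cell markers to 22.2 to 42.8 FPKM in knockdown, against 18.2 to 43.2 FPKM in control. The part of these cells in the levels of members they also express, such as Syk, Lyn, Fcgr2b, Ptprc, Ptpn6 and Fyn, was not tested.

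**Figure D5:**
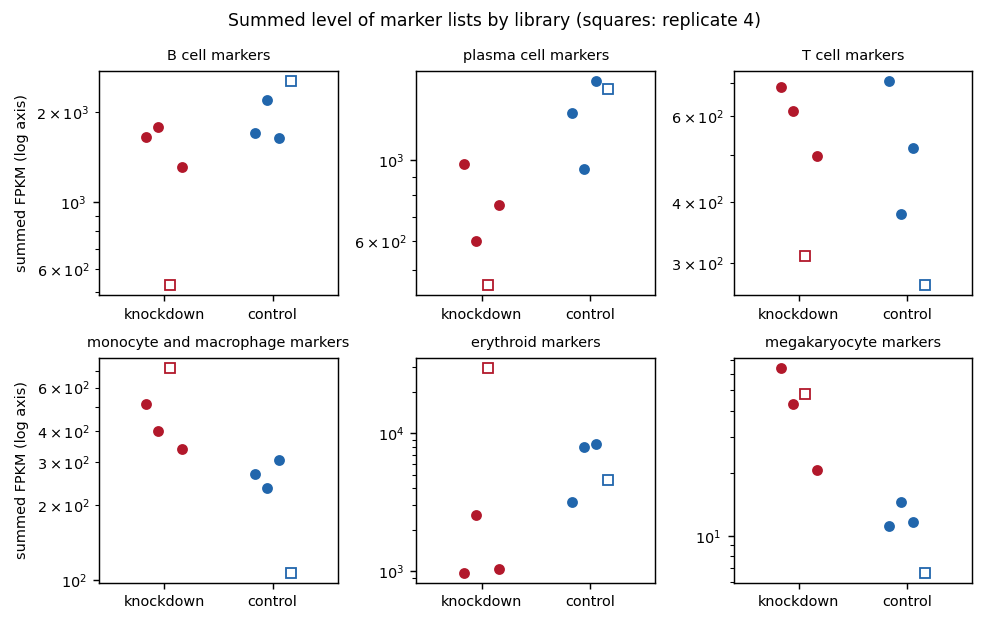
Summed FPKM (log axes) of 6 marker lists in each library, knockdown left of control, with open squares for replicate 4. B cell markers reach 528 FPKM in knockdown replicate 4, where erythroid markers reach 29618 FPKM. The monocyte and megakaryocyte sums are higher in every knockdown library than in every control, and Lyz2 is the largest part of each monocyte sum.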

How the data were processed

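Per the labels' protocols, libraries of polyadenylated RNA were run on a NovaSeq 6000. FPKM values were used as the authors deposited them, in 1 table of 54018 identifiers and 8 columns. CASAVA and Cufflinks are the tools in the submitters' processing notes, with no version. The authors' aligner, build, gene models and strand setting are unknown here (not given in the sources used). GENCODE M21 (GRCm38) named 53865 identifiers and gave the coordinates; 20 members overlap another annotated gene, mostly predicted models, so their reads may be shared. Depth was estimated from low FPKM values of genes with 1 transcript of 1500 to 6000 bases; 96.3% to 97.4% lay within 5% of a whole multiple of 1 fragment. Within-group correlations of log2 values were 0.888 to 0.962.

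Genes that reached 1 FPKM in 4 or more of the 8 libraries were tested on log2(FPKM + 1) with limma 3.58.1 (mean-variance trend, R 4.3.3), without covariates, with Benjamini-Hochberg adjustment over all genes tested and a threshold of 0.05. The second fit took the library's log2(Cd79a FPKM + 1) from every gene. Kdm1a was also compared by an exact permutation test. Both fits were run on simulated data in which genes varied independently. Limits on estimates and false calls were set for the first fit alone. Genes planned to be named were all members, Kdm1a and the 6 other pathway genes with the smallest p. Single marker genes, picked after their values were seen, the sex-linked Ddx3y and Xist, and Pik3r3 and Sh3bp2 of the other pathway genes were named as well. Members and lists were chosen with earlier results of these data known, so no list was tested. Alternatives changed the pseudocount (0.1, 5), filter, scaling, weights, block, denominator and libraries; leaving out both replicate 4 libraries was chosen after seeing the data. Tables were made with pandas 2.3.3 and numpy 2.4.6 in Python 3.11.15, plots with matplotlib 3.10.9.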

Additional observations from a re-analysis of the deposited data

Results flagged for a closer look

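Each member and Kdm1a was examined in each group for 1 library lying far from the other 3 on the log2 scale, by the share of the group's range that its gap to the nearest library takes (Dixon's test at the 95% level). Of 66 groups 8 met this. For a single group the nominal rate is about 1 in 20. The groups share the same libraries, so their count cannot be compared with that rate, and the share over all genes was not computed. In 6 of the 8 groups knockdown replicate 4 was the low library: Cd79b at 391 FPKM, Plcg2 at 23.4 FPKM, Vav2 at 11.7 FPKM, Pik3ap1 at 11.1 FPKM, Prkcb at 64.0 FPKM and Cd22 at 40.3 FPKM. The other 2 were Pik3cd in control replicate 2, at 80.1 FPKM in a group that varied little, and Cd72 in control replicate 3, at 52.8 FPKM.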

How the results depend on the processing

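No member was called as FPKM under any of the 16 alternatives, and 22 of 32 members kept the sign of their estimate under all of them. The median over members stayed negative, from -0.48 to -0.11 leaving out 1 library. The count of all genes called was far less stable: 224 became 24 with pseudocount 5, 2 without a filter, 71 with a mean of at least 5 FPKM, 131 with median-of-ratios scaling, 761 with array weights, 120 without both replicate 4 libraries and 8 to 333 leaving out 1 library. Relative to Cd79a, 446 became 1312 with pseudocount 5, 2584 without a filter, 94 with the higher filter, 7919 with array weights, 170 with Cd79b and 182 with B cell markers as denominator, 750 without both replicate 4 libraries and 34 to 3326 leaving out 1 library. The cause was not tested. Of the 31 members, 1 (Fyn) was called relative to Cd79a with pseudocount 5, without a filter and without both replicate 4 libraries. Leaving out 1 library, 0 to 1 were called. With array weights 7 of 31 were called (Akt1, Btk, Dapp1, Fyn, Pik3cd and Vav1 higher, Fcrla lower), beside 7919 of all 12889 genes. Adjusted p for Fyn ranged from 0.000608 with array weights to 0.408 with B cell markers as denominator. With Cd79b and with B cell markers as denominator the members' median was -0.13 and -0.050, with 12 and 14 members positive. Cd79a was left out of both counts, and Cd79b of the first as well. The median of all genes moved from 0.82 to 0.39 and 0.44, since a new denominator moves every gene by the same amount. Array weights called 4 of the 75 other pathway genes tested (Fgr, Pik3r2, Sh3bp2 and Pik3cg), beside 761 of all 12890 genes. Median-of-ratios scaling moved the median of all genes from 0.13 to 0.00412 and that of members to -0.53.

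In all, 10 uncalled members changed sign under some alternative. With median-of-ratios scaling Btk was at -0.13, Pik3r1 at -0.086 and Cd81 at -0.035. Array weights gave Vav1 0.047, Pik3r1 -0.079, Sos1 0.076, Rasgrp3 0.17, Cd81 -0.13, Cd72 0.11 and Ptprc 0.015. Without both replicate 4 libraries Btk was at -0.011, Vav1 0.037, Pik3r1 -0.069, Sos1 0.27, Rasgrp3 0.21, Cd81 -0.23, Cd72 0.17 and Ptprc 0.044. Leaving out 1 library gave Cd79b -0.51 to 0.036, Btk -0.090 to 0.095, Vav1 -0.21 to 0.15, Bank1 -0.41 to 0.034, Pik3r1 -0.12 to 0.14, Sos1 -0.28 to 0.10, Rasgrp3 -0.25 to 0.16, Cd81 -0.18 to 0.31, Cd72 -0.73 to 0.079 and Ptprc -0.22 to 0.22. Kdm1a lay between -0.53 and -0.35 leaving out 1 library, with p from 0.0286 to 0.114, and at -0.29 without both replicate 4 libraries (p = 0.1, the smallest that 3 against 3 allow); its exact test was not run with filters, weights or the block.

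Replicate numbers 1, 2 and 4 occur in both groups. Same-numbered libraries deviated together with r of 0.163, 0.0469 and -0.118, so the numbers were not taken to pair them. With the replicate block 0 genes were called by limma as FPKM (2085 at an unadjusted p under 0.05) and 333 relative to Cd79a, the median over members was -0.50, and Rasgrp3 was at 0.056.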
